A study of Mus musculus with 8 samples.

Results

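The genes of the tumour necrosis factor (TNF) superfamily, of the TRAF adaptor proteins and of the NF-kappaB pathway were examined in the spinal cord of mice with experimental autoimmune encephalomyelitis (EAE), an inflammatory demyelinating disease of the central nervous system that is used as a model of multiple sclerosis. Members were taken by gene symbol alone: Tnf, Lta, Ltb and the Tnfsf genes, Cd40lg, Cd70 and Fasl, the Tnfrsf genes, Ltbr, Cd40, Cd27 and Fas, Traf and Tank, Ikbk, Nfkb, Rel, Rela and Relb, Bcl3, Birc and Tnfaip. This rule found 55 of the 8251 genes on the array, measured by 70 of its 12422 probe sets. No Ripk gene was among them. Each gene is given by its brightest probe set (by the mean of the 8 arrays), unless another is named.

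Whole spinal cord RNA of female SJL/J mice was measured on 8 Affymetrix MG U74Av2 arrays, with RNA of 2 animals pooled on each array. The 5 EAE arrays came from 10 mice aged 8 to 12 weeks that had received a PLP peptide under the skin of the flank and were killed on day 12 to day 17 of EAE, at an average grade of 2.5 according to the labels. By the study's methods the peptide was emulsified in Complete Freund's Adjuvant with Mycobacterium tuberculosis, and pertussis toxin was injected into the abdomen. EAE mice had also been given murine serum albumin into a vein shortly before they were killed. The 3 control arrays came from 6 healthy mice of the same strain, sex and age, which received vehicle in place of the peptide. For these mice the labels name no albumin, and the study's methods name neither adjuvant nor pertussis toxin. An effect of albumin, adjuvant or toxin therefore cannot be told apart from that of EAE. Batches 1, 2 and 3 each held an EAE and a control array, and batches 4 and 5 an EAE array only. Values are log2 signals, so that a difference of 1 is a factor of 2. All differences are EAE minus control from a limma fit with treatment and batch, in which the fold change rests on the 3 batches that held both groups. Errors of group means are SD over arrays. A gene was called higher or lower where its p, adjusted over all probe sets by the Benjamini-Hochberg method, was under 0.05.

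Ligands of the TNF superfamily act as trimers on receptors of the TNF receptor superfamily. Receptors without a death domain bind TRAF adaptors, and those with a death domain, such as Tnfrsf1a and Fas, can also start caspase-dependent cell death. Either route can activate the IkappaB kinases, which release NF-kappaB dimers from their inhibitors. NF-kappaB then drives transcription of cytokines, adhesion molecules and several of its own inhibitors. In EAE, TNF and its receptors have been studied in microglia, infiltrating leukocytes, astrocytes and oligodendrocytes.

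Of the 55 members, 22 were higher and 2 were lower in EAE, and 31 passed in neither direction. The members called higher were 40.0% of the members, beside 9.19% of all 8251 genes, and those called lower were 3.64% of the members, beside 13.5% of all genes. Over the 12422 probe sets of the array the shares were 8.26% higher and 11.4% lower. The median difference was 0.21 for the members, beside -0.05 for all genes. The 5 EAE arrays all lay above the 3 control arrays for 26 members (47.3%, beside 11.9% of all genes), and all lay below them for 2 members (3.64%, beside 16.7%). A rise of at least 2-fold was found for 7 members (3.96% of all genes rose as much) and a fall of that size for 0 members (0.412% of all genes). These 7 were the receptors Tnfrsf1b, Fas and Tnfrsf1a, the ligand Ltb, the IkappaB proteins Nfkbiz and Nfkbia, and Tnfaip8. All 24 called members differed in the same direction in each of batches 1, 2 and 3. This largely follows from the call, since the fold change is the mean of these 3 differences. Of the 24 called members, 11 were still called whichever of batches 1, 2 and 3 was left out, namely the 7 above with Tnfaip2, Bcl3, Birc3 and Ltbr. Leaving out EAE 4 or EAE 5 cannot change a call in this fit. Without batch 3, 11 members were higher and 0 lower, and of the 12422 probe sets 521 were higher and 225 lower. The full fit had 1026 probe sets higher and 1412 lower. The other 13 were each lost when the arrays of at least 1 of batches 1, 2 and 3 were left out. When the same linear model was fitted with no moderation of the variances across genes, 0 of the 55 members passed after adjustment. At an unadjusted p under 0.05 that model had 19 of the 55 members higher and 2 lower. Of the 12422 probe sets it had 1081 higher and 1575 lower at that threshold.

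**Figure D1:**
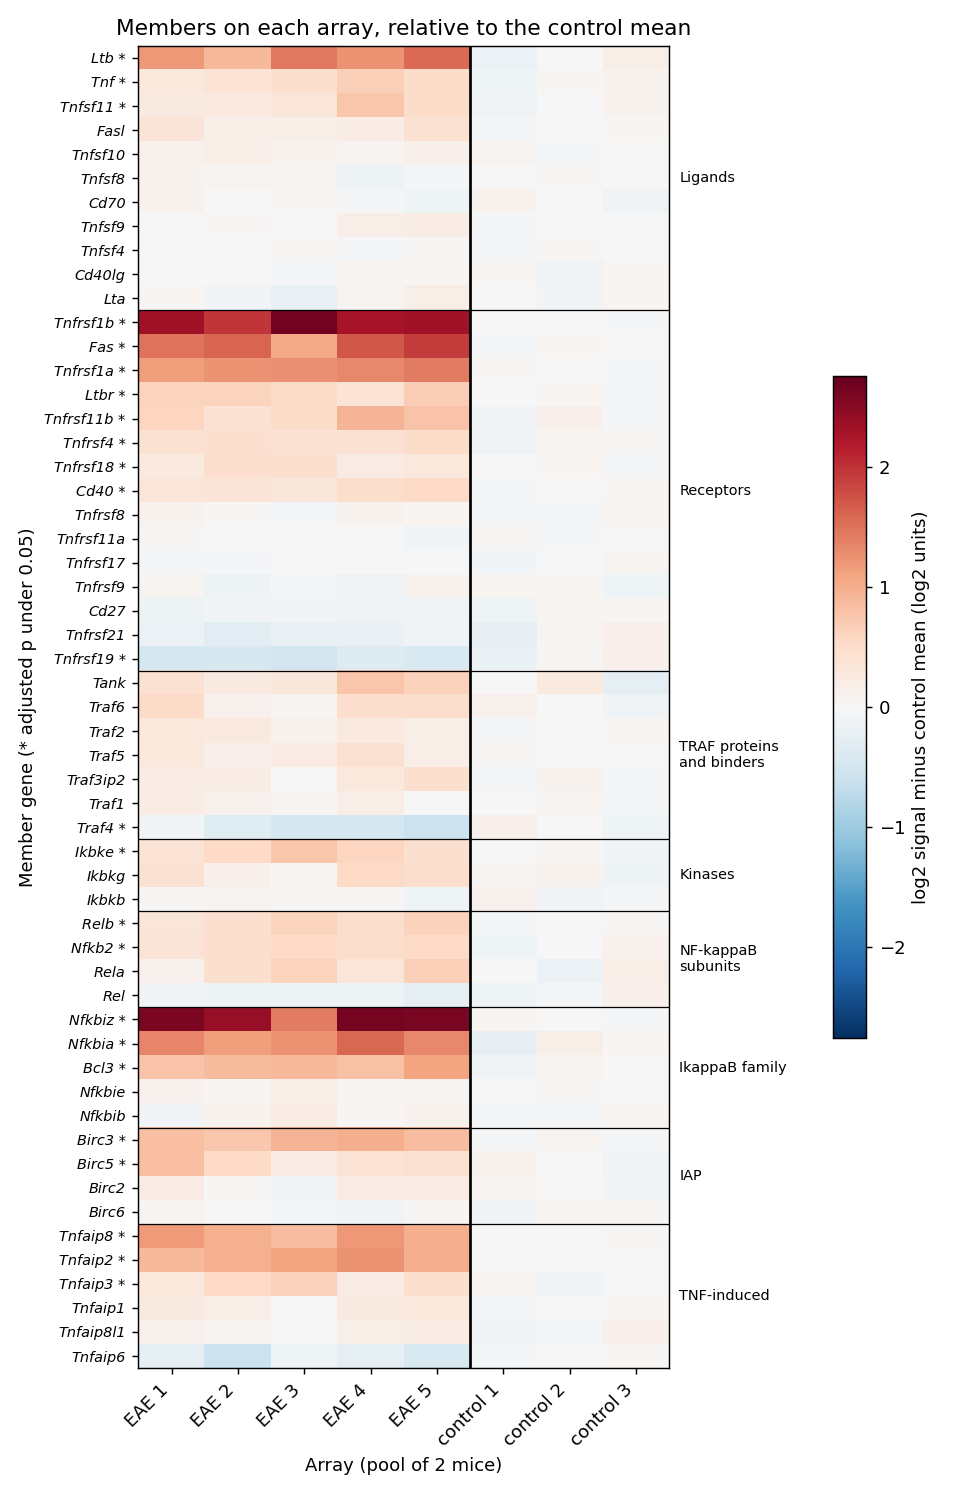
Log2 signal of the 55 members on each array minus the mean of the control arrays (colour, log2 units), with the 5 EAE arrays left of the 3 control arrays and genes grouped by role and ordered by fold change. Asterisks mark the 24 members with an adjusted p under 0.05, of which 22 were higher in EAE.

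**Figure D2:**
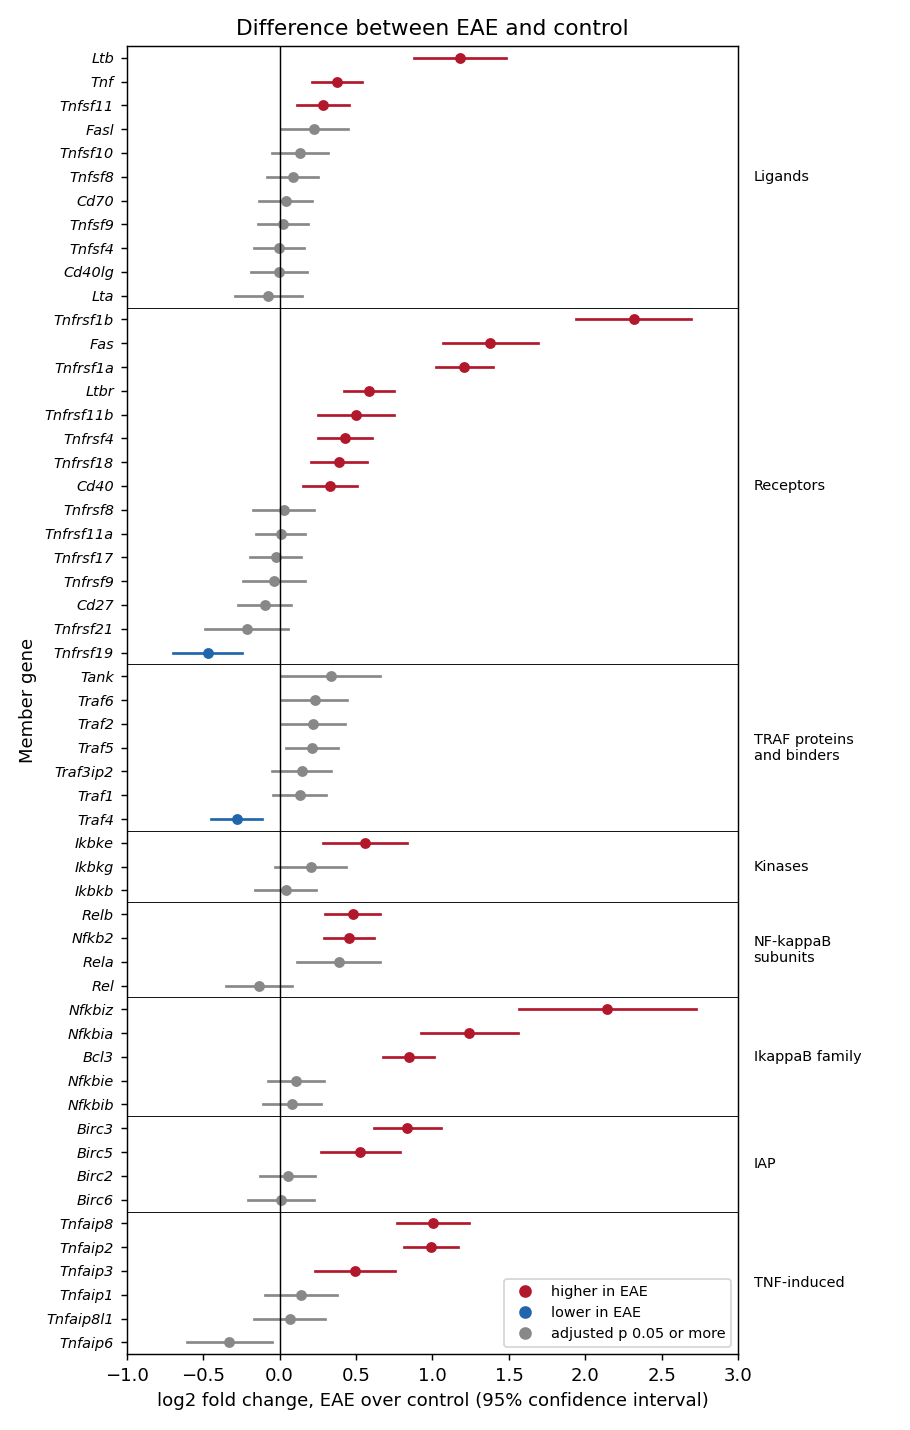
Log2 fold change, EAE over control, of the 55 members with its 95% confidence interval, grouped by role. The values run from -0.47 for Tnfrsf19 to 2.32 for Tnfrsf1b, and 8 of the 22 genes called higher, in red, are receptors.

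In bulk spinal cord, more cells of a type and more RNA per cell cannot be told apart. The summed linear signal of 12 macrophage and microglia markers was 8442 to 12221 on EAE arrays and 1630 to 1666 on control arrays, and 10 of the 12 were called higher, with a median of 2.05. For 8 neutrophil markers the sum was 1208 to 2045 on EAE arrays and 321 to 339 on control arrays (5 called higher), and for 10 T cell markers 598 to 651 on EAE arrays and 523 to 553 on control arrays (4 called higher). For 7 B cell markers it was 409 to 428 on EAE arrays and 387 to 473 on control arrays (0 called at an adjusted p under 0.05 in limma and 1 higher at an unadjusted p under 0.05). Sums for neuron markers were 5133 to 5774 on EAE arrays and 8277 to 8581 on control arrays, and for oligodendrocyte markers 6660 to 8303 on EAE arrays and 8900 to 9744 on control arrays. The part of these shifts in the members' differences was not tested. Array medians lay between 6.08 and 6.13. For Gapdh, the log2 signal of the 3' control probe set less that of the 5' one, a sign of RNA quality, was 1.46 on EAE 1 and 2.07 on EAE 4, 0.46 to 0.78 on the other EAE arrays and 0.53 to 0.97 on control arrays. For actin it was 2.35, 1.63, 1.11, 2.79 and 1.83 on EAE arrays 1 to 5. On control arrays 1 to 3 the actin difference was 2.20, 2.29 and 1.62, so that the 2 measures rank the arrays differently. Without EAE 1 and EAE 4 and without a batch term, 23 members were higher and 2 lower. All 24 called members were still called, and Rela was gained. Over the 12422 probe sets that setting had 992 higher and 1045 lower. It changed the model as well as the arrays. In the fit with batch, EAE 4 has no part, and leaving out EAE 1 lost 6 called members and gained Rela. The part of RNA quality in the differences was not tested.

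Because several genes of the pathway are themselves known NF-kappaB targets, their promoters were searched for kappaB motifs. RefSeq promoters of the mouse build GRCm38.p6 (250 bases before to 50 bases after the start) were at hand for 44 of the 55 members. A strict motif, GGGA followed by any base and then TTTCC, was searched on both strands, and so was the wider kappaB consensus, which takes in every match of the strict motif. The strict motif was found in Nfkbia, Ltb, Nfkb2 and Birc5, that is, in 4 of the 17 members higher in EAE that had a promoter window (23.5%). It was found in 0 of the 27 other members with a window, and in 0.578% of the 6576 genes of the array that had one. The consensus was found in 7 of the 17 members higher in EAE (41.2%), in 6 of the 27 others (22.2%) and in 12.3% of the 6576 genes. Rel, Tank, Nfkbie and Tnfrsf9 were among these 6. A match is a description of the letters and not evidence of binding. The stretches below end at or before the start site and are printed to show where the motifs of 5 members higher in EAE lie. Capitals mark matches of the consensus, and a match on the opposite strand reads as its reverse complement.
Nfkbia, chr12:55492648-55492711 (- strand): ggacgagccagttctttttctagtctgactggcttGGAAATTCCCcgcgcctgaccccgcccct
Ltb, chr17:35194385-35194464 (+ strand): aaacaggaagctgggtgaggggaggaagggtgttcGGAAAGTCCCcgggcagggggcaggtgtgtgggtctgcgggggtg
Birc5, chr11:117849158-117849236 (+ strand): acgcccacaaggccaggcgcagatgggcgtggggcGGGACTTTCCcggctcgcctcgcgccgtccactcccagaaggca
Nfkb2, chr19:46304663-46304736 (+ strand): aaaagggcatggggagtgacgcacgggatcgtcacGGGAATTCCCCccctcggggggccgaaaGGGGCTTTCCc
Tnfaip3, chr10:19015411-19015570 (- strand): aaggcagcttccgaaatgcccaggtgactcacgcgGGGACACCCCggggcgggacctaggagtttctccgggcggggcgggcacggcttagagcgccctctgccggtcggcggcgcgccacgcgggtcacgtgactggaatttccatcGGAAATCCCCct
In Nfkbia, the inhibitor IkappaB alpha, the match lay at -29 to -20 from the start, and in Ltb at -87 to -78, both on the opposite strand. In Birc5 it lay on the gene's strand at -44 to -35. Nfkb2 has several promoter windows, and the one printed holds overlapping matches of the consensus. The strict matches of Nfkb2 lie in its other windows, which overlap, and are the same site. Tnfaip3 holds a pair of consensus matches and none of the strict motif.

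Among the 11 ligands, Ltb, Tnf and Tnfsf11 were higher in EAE and none was lower, with a median difference of 0.08. Ltb encodes lymphotoxin beta, which anchors lymphotoxin on the surface of lymphocytes and signals through the lymphotoxin beta receptor. Its log2 signal was 6.29, 5.98, 6.56, 6.33 and 6.66 on EAE arrays 1 to 5, against 4.93, 5.11 and 5.25 on control arrays 1 to 3. Every EAE array lay above every control array, and EAE 2 was the lowest of the EAE arrays. The rise was 1.18 ± 0.12 on the log2 scale (SE), or 2.26-fold (95% confidence interval 1.84 to 2.78), with a limma adjusted p of 0.00435. Tnf itself, the founding cytokine of the family, rose far less. It had 5.76 ± 0.14 on EAE arrays (n = 5), against 5.30 ± 0.11 on control arrays (n = 3), with no overlap, and the rise was 1.30-fold (1.16 to 1.45, limma adjusted p = 0.0190). Tnfsf11, known as RANKL and best known for its role in osteoclast formation, had 4.94 ± 0.21 on EAE arrays and 4.51 ± 0.088 on control arrays, a rise of 0.28 (limma adjusted p = 0.0416). The calls of Tnf and Tnfsf11 were both lost whichever of batches 1, 2 and 3 was left out.

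The 8 other ligands had differences between -0.07 and 0.23. The brightest of them was Lta, which encodes lymphotoxin alpha. It had 6.57 ± 0.14 on EAE arrays and 6.57 ± 0.066 on control arrays, a difference of -0.07 (95% confidence interval -0.29 to 0.14). Fasl, the ligand of Fas, did not overlap between the groups, with 4.99 to 5.27 on EAE arrays and 4.79 to 4.89 on control arrays, but its difference of 0.23 missed the threshold (limma adjusted p = 0.139). The T cell ligand Cd40lg differed by -0.01 (-0.19 to 0.18). Tnfsf10, known as TRAIL, differed by 0.13, Tnfsf8 by 0.08, Cd70 by 0.04, Tnfsf9 by 0.02 and Tnfsf4 by -0.00. Ltb, Tnf and Lta are next to each other on mouse chromosome 17 with no other protein-coding gene between them, and their differences in that order were 1.18, 0.38 and -0.07.

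Receptors formed the largest group, and 8 of the 15 were higher and 1 was lower, with a median difference of 0.33. Tnfrsf1b, the TNF receptor known as TNFR2 that lacks a death domain, had the largest fold change of the members in this fit. Without a batch term Nfkbiz was higher, at 2.34 beside 2.31. The log2 signal of Tnfrsf1b was 7.45, 7.08, 7.77, 7.39 and 7.44 on EAE arrays 1 to 5, against 5.14, 5.13 and 5.09 on control arrays 1 to 3. The groups were far apart, with the lowest EAE value, in EAE 2, well above all control values, which differed little among themselves. The rise was 2.32 ± 0.15 (SE), or 4.98-fold (3.84 to 6.46, limma adjusted p = 0.00112), and 2.32, 1.95 and 2.68 within batches 1, 2 and 3.

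Fas, a death-domain receptor that can start apoptosis, had 6.02, 6.11, 5.57, 6.24 and 6.45 on EAE arrays 1 to 5, against 4.48, 4.57 and 4.53 on control arrays 1 to 3. No value overlapped, and EAE 3, from mice killed on day 17, was the lowest of the EAE arrays. The rise was 2.60-fold (2.09 to 3.23, limma adjusted p = 0.00325). The array also carries an Affymetrix control probe set for mouse Fas, which the rule leaves out and which did not enter the fit. On it EAE arrays averaged 6.997 ± 0.19 and control arrays 5.85 ± 0.0062, a difference of group means of 1.15 (exact permutation test, two-sided, p = 0.0179, the smallest that the 56 regroupings of the arrays allow), and EAE 3 was again the lowest EAE array.

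Tnfrsf1a, the death-domain TNF receptor known as TNFR1, had 7.14, 7.23, 7.25, 7.33 and 7.43 on EAE arrays 1 to 5, against 6.03, 6.01 and 5.95 on control arrays 1 to 3. All EAE values lay more than a full log2 unit above all control values, and both groups were tight. The rise was 1.21 ± 0.072 (SE), or 2.31-fold (2.04 to 2.63), with a limma adjusted p of 0.000918. This rise rests on the brighter of 2 probe sets. The other, 161194_r_at, had 6.07 ± 0.093 on EAE arrays and 6.03 ± 0.27 on control arrays, a difference of -0.01 (limma adjusted p = 0.961). In the control arrays alone the second probe set was on average slightly the brighter one, at 6.03 against 6.00. That order came from control 3, with 6.33 on the second probe set and 5.95 on the first. On control 1 and control 2 the first was the brighter. The choice of probe set thus decides this call.

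**Figure D3:**
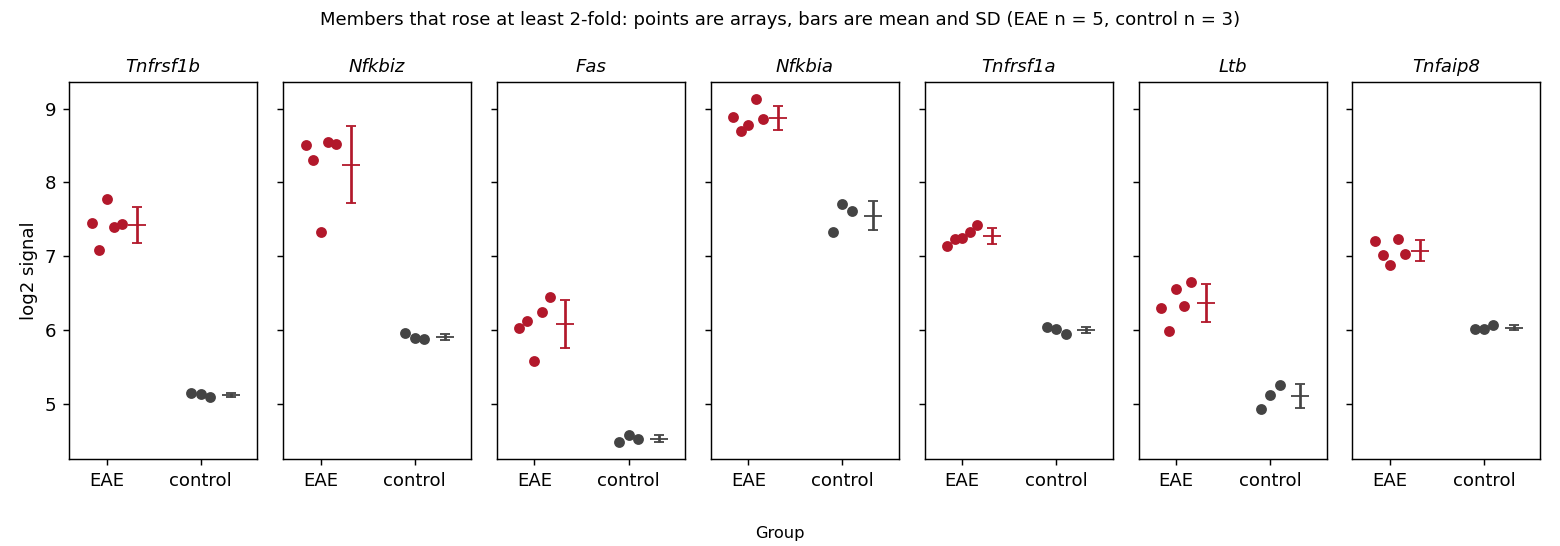
Log2 signal of the 7 members that rose at least 2-fold, with each array as a point and the mean and SD as a bar, EAE (n = 5) left of control (n = 3) in each panel. In no panel do the groups overlap, and the Nfkbiz value of EAE 3 (7.33) stands below those of the other EAE arrays.

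The other receptors called higher changed less. Ltbr, the lymphotoxin beta receptor, had 7.10 ± 0.11 on EAE arrays and 6.54 ± 0.046 on control arrays and rose by 0.59 (0.42 to 0.75, limma adjusted p = 0.00559). Tnfrsf11b, the soluble decoy receptor osteoprotegerin, rose by 0.50 (limma adjusted p = 0.0262). Tnfrsf4 and Tnfrsf18, the costimulatory receptors OX40 and GITR of T cells, rose by 0.43 and 0.39 (limma adjusted p = 0.0160 and 0.0234). They are neighbours on mouse chromosome 4. Cd40, the costimulatory receptor of B cells, macrophages and dendritic cells, had 5.58 ± 0.11 on EAE arrays and 5.17 ± 0.054 on control arrays and rose by 0.33 (limma adjusted p = 0.0306). In each of these 5 receptors every EAE array lay above every control array. The call of Ltbr held whichever array was left out. That of Tnfrsf11b was lost without batch 1 or 3, those of Tnfrsf4 and Tnfrsf18 without batch 2 or 3, and that of Cd40 whichever of the 3 batches was left out.

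Tnfrsf19, known as TROY and expressed in the nervous system, was the receptor called lower. It had 5.78 ± 0.054 on EAE arrays and 6.21 ± 0.16 on control arrays, without overlap, and fell by 0.47 on the log2 scale (limma adjusted p = 0.0242). It fell by 0.30, 0.47 and 0.64 within batches 1, 2 and 3. The call was lost without batch 2 or 3.

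The 6 receptors that passed in neither direction differed by -0.21 to 0.03. The brightest was Tnfrsf21, the death receptor DR6, with 8.02 ± 0.081 on EAE arrays and 8.20 ± 0.19 on control arrays, a difference of -0.21 (-0.49 to 0.06, limma adjusted p = 0.243). Tnfrsf8, known as CD30, lies next to Tnfrsf1b on chromosome 4 and differed by 0.03 (-0.17 to 0.23), beside 2.32 for Tnfrsf1b. Cd27, a costimulatory receptor of T cells, lies near Ltbr and Tnfrsf1a on chromosome 6 and differed by -0.10, beside 0.59 and 1.21 for those receptors. Tnfrsf11a, the receptor of RANKL, differed by 0.01 and the plasma cell receptor Tnfrsf17, known as BCMA, by -0.03. Tnfrsf9, known as 4-1BB, differed by -0.04 with its brighter probe set.

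The TRAF proteins and their binders, which carry the signal from receptors to kinases, had 0 of 7 members higher at an adjusted p under 0.05 in the limma fit and 1 lower, with a median difference of 0.21. Over all genes 9.19% were higher and 13.5% lower at the adjusted threshold. At an unadjusted p under 0.05 4 of the 7 were higher and 1 was lower. The share of all genes at that looser threshold is not given here, so this count has nothing to be set against. Without a batch term, or with batch as a random block, Traf2 and Traf5 were called higher, and with the random block so was Tank (limma adjusted p = 0.0451). Traf4, a TRAF protein with roles in development, had 6.76 ± 0.19 on EAE arrays and 7.14 ± 0.13 on control arrays. It fell by 0.28 on the log2 scale (limma adjusted p = 0.0425) and by 0.22, 0.31 and 0.31 within batches 1, 2 and 3. The groups overlapped, with up to 7.06 on EAE arrays and down to 7.02 on control arrays, and the call was lost whichever of these batches was left out and also without a batch term. Its second probe set differed by -0.09 (limma adjusted p = 0.523). The brightest of the others was Tank, a TRAF binder, with 7.99 ± 0.22 on EAE arrays and 7.51 ± 0.26 on control arrays, a difference of 0.33 (0.01 to 0.66, limma adjusted p = 0.143). Traf6, which serves interleukin 1 and Toll-like receptors as well as CD40, differed by 0.23. Traf2, the main adaptor of the TNF receptors, differed by 0.22 with no overlap (limma adjusted p = 0.131), and Traf5 by 0.21 with no overlap (limma adjusted p = 0.0910). Traf3ip2, an adaptor of interleukin 17 receptors, differed by 0.14 and Traf1 by 0.13.

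Of the 3 IkappaB kinase genes, Ikbke was higher. This kinase is related to Tbk1 and acts in antiviral signalling. It had 6.77 ± 0.15 on EAE arrays and 6.23 ± 0.063 on control arrays, without overlap, and rose 1.47-fold (1.22 to 1.78, limma adjusted p = 0.0256), a call that was lost without batch 2 or 3. Ikbkg, the regulatory subunit NEMO, had 6.60 ± 0.22 on EAE arrays and 6.27 ± 0.12 on control arrays, a difference of 0.20 (-0.03 to 0.43). Its probe set 103216_f_at has the suffix that Affymetrix uses for probes shared by similar transcripts. The catalytic subunit Ikbkb was dim and differed by 0.04 (-0.16 to 0.24).

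Of the 4 NF-kappaB subunits, Relb and Nfkb2 were higher, with a median of 0.42 for the group. These 2 proteins pair in the non-canonical branch of the pathway, which the lymphotoxin beta receptor and CD40 can start. Relb had 6.22 ± 0.12 on EAE arrays and 5.71 ± 0.052 on control arrays and rose 1.39-fold (1.23 to 1.58, limma adjusted p = 0.0132). Nfkb2 had 5.33 ± 0.081 on EAE arrays and 4.85 ± 0.11 on control arrays and rose 1.37-fold (1.23 to 1.53, limma adjusted p = 0.0107). Neither overlapped between the groups, and the rises of Nfkb2 in the 3 batches were nearly equal, at 0.48, 0.45 and 0.44. Both calls were lost without batch 2 or 3. Rela, the main subunit of the canonical branch, had 8.11 ± 0.22 on EAE arrays and 7.68 ± 0.16 on control arrays. Its difference of 0.39 (0.12 to 0.65) missed the threshold (limma adjusted p = 0.0639) and was 0.13, 0.59 and 0.43 in batches 1, 2 and 3. Rela was called higher when batch 1 was left out, with batch as a random block, and when only probe sets above the median signal were tested. The same held in the fit that left out the batch term together with EAE 1 and EAE 4. Its second, dimmer probe set differed by -0.10 (-0.28 to 0.07, limma adjusted p = 0.383). Rel, the subunit c-Rel of lymphoid and myeloid cells, was dim and differed by -0.13 (-0.35 to 0.08).

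The IkappaB family had the highest median difference of the groups, 0.85, with 3 of 5 genes higher. Nfkbiz encodes a nuclear IkappaB protein that helps NF-kappaB to induce secondary response genes such as Lcn2. Its log2 signal was 8.50, 8.31, 7.33, 8.55 and 8.52 on EAE arrays 1 to 5, against 5.96, 5.89 and 5.88 on control arrays 1 to 3. EAE 3 was far below the other EAE arrays but still above every control array. The rise was 2.14 ± 0.23 (SE), or 4.42-fold (2.96 to 6.59, limma adjusted p = 0.00510), and 2.55, 2.42 and 1.46 within batches 1, 2 and 3. The SE was the largest of the members. A second, dimmer probe set differed by 0.48 (limma adjusted p = 0.0569), and on it too EAE 3 was the lowest of the EAE arrays.

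Nfkbia, the inhibitor that holds NF-kappaB in the cytoplasm and is itself induced by it, was the brightest of the called members. It had 8.89, 8.70, 8.78, 9.13 and 8.86 on EAE arrays 1 to 5, against 7.33, 7.71 and 7.61 on control arrays 1 to 3. All EAE arrays lay close together and well above the control arrays. The rise was 2.36-fold (1.90 to 2.94, limma adjusted p = 0.00446). Its second probe set rose by 1.53 ± 0.086 (SE), against 1.24 ± 0.12 for the first. Nfkbia was the only one of the 14 members with several probe sets for which all of them passed.

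Bcl3, a nuclear IkappaB protein that binds p50 and p52 dimers, had 7.51 ± 0.12 on EAE arrays and 6.63 ± 0.082 on control arrays and rose by 0.85 (0.68 to 1.01, limma adjusted p = 0.00203). Its differences within the batches were alike, at 0.87, 0.79 and 0.87. Nfkbib and Nfkbie, which encode IkappaB beta and epsilon, did not pass. Nfkbib, the brighter of them, had 6.98 ± 0.12 on EAE arrays and 6.90 ± 0.067 on control arrays, a difference of 0.08 (-0.11 to 0.27), and Nfkbie differed by 0.11 with no overlap.

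Of the 4 genes of the inhibitor of apoptosis (IAP) family, Birc3 and Birc5 were higher. Birc3, a ubiquitin ligase that binds TRAF2 and is a known NF-kappaB target, had 6.59 ± 0.10 on EAE arrays and 5.72 ± 0.066 on control arrays and rose 1.78-fold (1.53 to 2.08, limma adjusted p = 0.00480). Its close relative Birc2, next to it on mouse chromosome 9, had 7.59 ± 0.15 on EAE arrays and 7.46 ± 0.079 on control arrays, a difference of 0.05 (-0.13 to 0.23). Birc5 encodes survivin, which acts in cell division. It had 4.90 ± 0.23 on EAE arrays and 4.42 ± 0.092 on control arrays and rose by 0.53 (limma adjusted p = 0.0252), with 0.74, 0.55 and 0.30 in batches 1, 2 and 3. The call was lost whichever of these batches was left out. The summed signal of 9 markers of proliferating cells, Mki67 and Top2a among them, was 745 to 1016 on EAE arrays and 636 to 645 on control arrays (5 called higher), and EAE 3 had the lowest value of the EAE arrays both in that sum and for Birc5, with 4.63. The part of dividing cells in the result was not tested. Birc6 differed by 0.01.

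Among the 6 genes named for their induction by TNF, 3 were higher. Tnfaip8, which has been described as a regulator of cell death and lipid signalling, had 7.20, 7.02, 6.88, 7.23 and 7.03 on EAE arrays 1 to 5, against 6.02, 6.01 and 6.06 on control arrays 1 to 3. No EAE value came near the control values, which were almost the same. The rise was 1.00 ± 0.091 (SE), or 2.00-fold (1.70 to 2.36, limma adjusted p = 0.00350). Tnfaip2 lay just under the 2-fold line, with 7.34 ± 0.13 on EAE arrays and 6.29 ± 0.013 on control arrays and a rise of 1.99-fold (1.76 to 2.25, limma adjusted p = 0.00157). Tnfaip3 encodes A20, a ubiquitin-editing enzyme that ends NF-kappaB signalling. It was dim, with 4.97 ± 0.17 on EAE arrays and 4.53 ± 0.066 on control arrays, and rose by 0.50 (limma adjusted p = 0.0306), a call that was lost without batch 2 or 3. The brightest gene of the group that did not pass was Tnfaip6, a hyaluronan-binding protein, with 7.75 ± 0.18 on EAE arrays and 8.08 ± 0.039 on control arrays. All EAE arrays lay below all control arrays, and the difference was -0.33 (-0.61 to -0.05, limma adjusted p = 0.104). Tnfaip1 and Tnfaip8l1 differed by 0.14 and 0.07.

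All 31 members that did not pass had differences between -0.33 and 0.39, and 22 of these differences were positive. For 28 of the 31 the 95% confidence interval of the brightest probe set lay within 0.5 of 0 on the log2 scale. Low signal was common among the members. The mean of the control arrays was below the array median in 35 of the 55, and array signals are compressed near background.

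Several genes were read by more than 1 probe set, and these did not always give the same answer. Of the 14 such members, 1 had all probe sets called, 6 had some called and 7 had none called. Besides Tnfrsf1a, Nfkbiz and Traf4, this concerned Lta, Tnfrsf9 and Relb. The dimmer probe set of Lta, 102630_s_at, had 5.17 ± 0.076 on EAE arrays and 4.95 ± 0.063 on control arrays and rose by 0.26 (limma adjusted p = 0.0490), beside -0.07 for the brighter one. The dimmer probe set of Tnfrsf9 rose by 0.58 (limma adjusted p = 0.0220), beside -0.04 for the brighter one. The dimmer probe set of Relb differed by 0.09 (limma adjusted p = 0.428), beside 0.48 for the brighter one. A probe set annotated to both Tnfsfm13 and Tnfsf12 was not counted as a member, and rose by 0.27 (limma adjusted p = 0.0427).

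**Figure D4:**
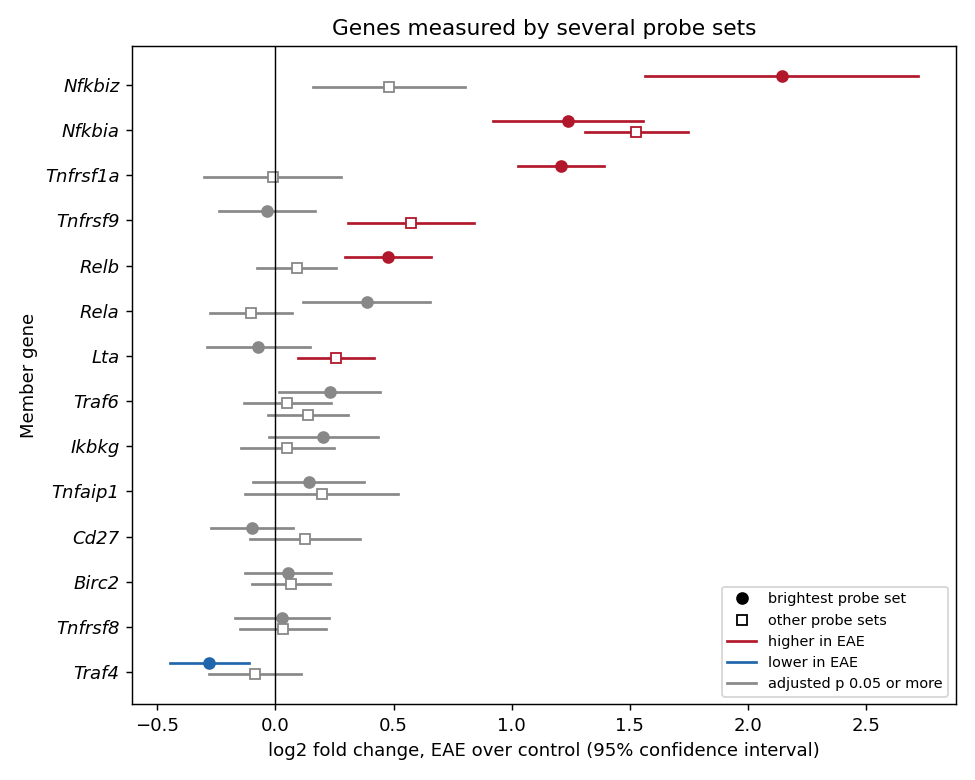
Log2 fold change, EAE over control, with its 95% confidence interval for each probe set of the 14 members with several, filled circles for the brightest probe set and open squares for the others. Nfkbia is the gene whose probe sets all passed, and the probe sets of Tnfrsf1a lie at 1.21 and -0.01.

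The other genes of the pathway were examined through a list of TNF receptor, TRAF and IkappaB kinase signalling genes whose symbols lie outside the rule. Of the 58 listed, 35 were measured, 3 were higher and 4 were lower, with a median of -0.00. Over all genes 9.19% were higher and 13.5% lower with a median of -0.05, so that the counts of this list were close to those of the array as a whole. Grn encodes progranulin, a secreted lysosomal protein that is abundant in microglia and macrophages and has been reported to bind TNF receptors. It had 9.15 ± 0.28 on EAE arrays and 6.51 ± 0.16 on control arrays, a rise of 2.68 ± 0.10 (SE, limma adjusted p = 0.000323). Casp8, the initiator caspase of death receptors, rose by 0.72 (limma adjusted p = 0.00430), and Cflar, its inhibitor c-FLIP, by 0.63 (limma adjusted p = 0.0491). The coactivator Crebbp fell by 0.57 on the log2 scale, the ubiquitin-conjugating enzyme genes Ube2d3 and Ube2v1 fell by 0.43 and 0.33, and the deubiquitinase gene Otud7b fell by 0.37.

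A second list held genes known as transcriptional targets of NF-kappaB, none of them a member. Like the first list, it was chosen with earlier results of these data known, so its counts are a description and not a test. Of the 50 listed, 48 were measured, 29 were higher and 1 was lower, with a median of 0.67, beside 9.19% higher, 13.5% lower and a median of -0.05 over all genes. The largest rises were those of Lcn2 (5.97), Saa3 (5.45), Ccl2 (5.42), Tap1 (3.91) and Ccl5 (3.76), which encode a siderophore-binding protein, an acute phase protein, 2 chemokines and a subunit of a peptide transporter. Tap1 and other genes of this list also respond to interferons. Gclc, a glutathione synthesis enzyme, fell by 0.35 on the log2 scale.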

How the data were processed

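RNA of whole spinal cords was measured on Affymetrix MG U74Av2 arrays, each with 2 pooled animals. The deposited values are log2 signals, which the authors normalized in Partek with RMA and quantile normalization, adjusted for GC content and transformed to base 2. The versions are not given in the sources used here. They were not normalized again. RMA and quantile normalization bring the arrays to a similar distribution, here with medians of 6.08 to 6.13. Differences are therefore relative to the other genes of the array, and signals near background are compressed.

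The sample labels gave the groups and the batches, and batch equals replicate number. Arrays of the same batch were checked for shared deviations from their group means: the correlations over all probe sets were 0.302, -0.231 and 0.412 in batches 1, 2 and 3. The batch entered the fit as the replicate block because the labels name it as shared, although the correlation was negative in batch 2. Replicates are separate pools of animals. The p values of the fit rest on the spread of the EAE minus control differences within batches 1, 2 and 3. This spread was moderated by the variances across genes. EAE arrays of batches without a control array have no part in it, so it is not the spread between all pools.

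The fit of treatment with batch as a second fixed factor was made by lmFit and eBayes of limma 3.58.1 (R 4.3.3). It had 2 residual and 3.05 prior degrees of freedom and covered 12422 probe sets after 66 Affymetrix control probe sets were left out, with no filter on dim ones. The two-sided p values received the Benjamini-Hochberg adjustment over all of them. Single values outside the fit were tested by exact permutation, with 56 regroupings of the 8 arrays. Of the probe sets, 10833 had 1 gene symbol, 396 several and 1193 none. The 55 members matched the RefSeq gene table of GRCm38.p6 by Entrez identifier, and 0 symbols differed. That table gave names, neighbours and promoters only, since no build is given for the probe sets. The fit was tested on simulated data of the same design. Figures were drawn with matplotlib 3.10.9.

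Named genes are every member, with values for each array where the change passed the test at 2-fold or more, for each role the brightest member that did not pass, and up to 5 genes in each direction of the pathway and target lists. The members and the lists were chosen with earlier results of these data known. Alternatives changed the batch term, variance model, normalization, threshold, signal filter and probe set per gene, or left out each array in turn. The number of arrays limits the precision.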

Additional observations from a re-analysis of the deposited data

Results flagged for a closer look

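In 3 of the 55 members an EAE array stood apart from the other 4 by Dixon's test at its 95% critical value, which chance passes in about 1 of 20 groups. Nfkbiz was 7.33 on EAE 3, against 8.31 to 8.55 on the other EAE arrays and 5.88 to 5.96 on control arrays. Ikbkb was 4.63 on EAE 5, against 4.77 to 4.82 on the other EAE arrays and 4.65 to 4.87 on control arrays. Rel was 4.91 on EAE 5, against 5.02 to 5.07 on the other EAE arrays and 5.05 to 5.32 on control arrays. No cause was tested for any of them.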

How the results depend on the processing

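Over the 55 members and 22 alternatives, 1042 of 1179 comparisons kept their side of the threshold. Another 122 lost a call, 12 gained one and 3 changed both call and sign. The alternatives are not independent. Without EAE 4 or EAE 5 all 55 members were bound to stay the same. Leaving out EAE 1, 2 or 3 gave the same result as leaving out the control array of that batch, so these are counted again. In 41 of the 1042 the sign changed, all for members that were not called. The 3 changes of both call and sign came from another probe set per gene, and none of these members was called in both directions. With the most variable probe set Lta was 0.26 and Tnfrsf9 0.58, both called higher but not called in the main fit. With the one brightest in the control arrays, added after the data were seen, Tnfrsf1a was -0.012 and lost its call. Against 22 members higher and 2 lower, 3 pathway genes higher and 4 lower, 29 targets higher and 1 lower, and 1026 probe sets higher and 1412 lower, the linear model without moderation called 0 and 0 members, 0 and 0 pathway genes, 0 and 0 targets, and 1 and 0 probe sets (19 and 2 members, and 1081 and 1575 probe sets, at an unadjusted p under 0.05). An adjusted p under 0.01 left 11 and 0 members, 1 pathway gene lower, 0 targets lower, and 540 and 290 probe sets. A 2-fold minimum left 7 and 0 members, 1 and 0 pathway genes, 0 targets lower, and 419 and 44 probe sets. Among probe sets above the median signal, which hold 24 of the members, 13 were higher and 0 lower. A further quantile normalization left 1 member, 2 pathway genes and 0 targets lower, an intensity trend 1 member and 0 targets lower, and the mean of a gene's probe sets 1 member lower. The most variable probe set gave 6 pathway genes higher. Without the replicate block 24 members were higher and 1 lower, with 1 pathway gene lower: Traf4 was lost, and Traf2 and Traf5 were gained. With the replicate block as a random block (correlation 0.215) 27 members were higher and 3 lower, with 2 pathway genes lower, and Fasl, Rela, Tnfaip6, Tank, Traf2 and Traf5 were gained. Without the block and EAE arrays 1 and 4, added after the data were seen, 1 pathway gene and 0 targets were lower. With 1 array left out the counts ran from 11 to 22 members higher and 0 to 2 lower, 2 to 3 pathway genes higher and 0 to 4 lower, 21 to 29 targets higher and 0 to 1 lower, and 521 to 1026 probe sets higher and 225 to 1412 lower. Leaving out EAE 4 or EAE 5 changed no member's call, since the batch term leaves these arrays no part in the difference, while leaving out either array of batch 1, 2 or 3 lost 6, 12 or 13 members by leaving 2 pairs. Median centring lost Tnfsf11, and a robust prior lost and gained none of the members. The causes of the other changes were not tested.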

Other observations

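The markers of 4 further cell types were read in the same way. The summed linear signal of 5 astrocyte markers was 7103 to 9732 on EAE arrays and 7339 to 8312 on control arrays, that of 7 endothelial markers 634 to 749 on EAE arrays and 598 to 731 on control arrays, and that of 5 skeletal muscle markers 161 to 186 on EAE arrays and 164 to 173 on control arrays. The sum of 2 red blood cell markers was more variable, with 95.9 to 552 on EAE arrays and 115 to 159 on control arrays. EAE 3, from mice killed on day 17, had the highest sum of the macrophage and microglia markers of the 5 EAE arrays, 12221, and the lowest sum of the markers of proliferating cells, 745. Among the called members, the same array had the lowest EAE values of Nfkbiz, Fas, Birc5, Tnfaip8, Cd40, Tnfrsf4 and Tnfrsf19. It had the highest EAE values of Tnfrsf1b, Ikbke and Tnfaip3, and other arrays were lowest or highest for the other called members. The day and the batch of this array cannot be told apart.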
